A study of Mus musculus with 12 samples.

Results

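The AP-1 and immediate early genes followed here are 10 named genes, Fos, Fosb, Fosl1, Fosl2, Jun, Junb, Jund, Atf3, Egr1 and Ier2, chosen by symbol from the 49492 genes of the deposited count table, with the 28 of 42989 deposited m6A peaks that carry their names. The libraries came from mouse skin in 2 conditions, control and UV, with 3 samples per condition. Each sample gave an input library of total RNA and an IP library of RNA pulled down with an antibody against N6-methyladenosine (m6A), a methyl mark on adenosines inside messenger RNA. The series concerns the m6A writer subunit KIAA1429, the microfibril gene Mfap4 and collagen in photoaged skin. Control samples carry the treatment label Control and the others the label UV. The sources used here do not give the strain, sex, age, body site, UV wavelength, dose or time from the last exposure to sampling. The labels do not state that samples of a condition are separate animals, so p-values measure the spread between these samples, which may be technical.

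AP-1 is a dimeric transcription factor built from a FOS protein (Fos, Fosb, Fosl1, Fosl2) and a JUN protein (Jun, Junb, Jund), or from JUN dimers, and it can also include ATF proteins such as Atf3. In resting cells most of these genes are transcribed at a low level. MAP kinase signalling set off by UV, growth factors or wounding switches on immediate early genes within minutes, without new protein synthesis, and their transcripts are then lost quickly. In skin AP-1 drives genes of keratinocyte differentiation and matrix-degrading proteases, and its activation by UV is a textbook step towards collagen loss. Egr1 is a zinc finger transcription factor of the same early wave, and Ier2 is a nuclear protein encoded by another gene of that wave.

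The stretches upstream of 4 members are shown because these genes carry the larger values below: Fos and Fosb had the widest spread among control samples, Fosb and Atf3 the largest difference between conditions, and Jun the highest peak value in control skin. RefSeq promoter entries (GRCm38.p6) were matched for 7 of the 10 members, not for Fosl1, Egr1 and Ier2. The sequences run 5′ to 3′ on the gene's strand and end at the base before the transcript start of the promoter entry. The Fosb entry counts from a transcript start that lies inside the RefSeq span of the gene, so only the first 177 of its 250 upstream bases, those outside that span, are shown. They cover chr12:85473640-85473889 (plus strand) for Fos, chr7:19310119-19310295 (minus strand) for Fosb, chr1:191183334-191183583 (minus strand) for Atf3 and chr4:95052223-95052472 (minus strand) for Jun. The Atf3 stretch precedes the RefSeq span of the gene but lies inside the longer span used for its counts, 191170296 to 191218039. Capitals mark matches on either strand to 4 motifs. TGACG is part of the cyclic AMP response element. TGACNTCA, where N is any base, is a longer string that equals the palindromic form of that element only when N is G. GGGCGG is known to bind SP family factors. The core promoter element TATAAA binds the TATA-binding protein.
Fos: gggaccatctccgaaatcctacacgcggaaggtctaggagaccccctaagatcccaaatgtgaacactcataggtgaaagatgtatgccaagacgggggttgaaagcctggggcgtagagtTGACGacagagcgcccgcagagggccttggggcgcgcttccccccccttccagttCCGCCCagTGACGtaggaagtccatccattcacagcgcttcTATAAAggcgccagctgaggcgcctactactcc
Fosb: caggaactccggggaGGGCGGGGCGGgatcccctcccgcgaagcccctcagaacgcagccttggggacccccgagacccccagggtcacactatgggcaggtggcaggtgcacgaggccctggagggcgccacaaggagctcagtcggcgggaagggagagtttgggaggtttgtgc
Atf3: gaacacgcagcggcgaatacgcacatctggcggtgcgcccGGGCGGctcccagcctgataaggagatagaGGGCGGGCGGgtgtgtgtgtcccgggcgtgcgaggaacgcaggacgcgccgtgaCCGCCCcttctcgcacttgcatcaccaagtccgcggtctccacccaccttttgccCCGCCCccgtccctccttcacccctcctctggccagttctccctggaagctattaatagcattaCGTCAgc
Jun: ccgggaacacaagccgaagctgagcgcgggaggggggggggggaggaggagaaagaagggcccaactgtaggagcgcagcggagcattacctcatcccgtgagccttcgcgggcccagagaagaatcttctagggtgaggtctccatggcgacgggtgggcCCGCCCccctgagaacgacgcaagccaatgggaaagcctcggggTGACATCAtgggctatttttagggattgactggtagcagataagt
With the base before each entry's start counted as -1, Fos held TGACG at -129 and -66, GGGCGG at -74 and TATAAA at -33. Fosb held GGGCGG at -235 and -230, which share a base, and at -46, and TGACG at -60, the last 2 outside the printed stretch. Atf3 held TGACG at -7 and 5 GGGCGG matches, of which those at -180 and -176 share bases. Jun held TGACNTCA at -45 and GGGCGG at -89. Of 32851 RefSeq windows of 250 upstream bases, 17.8% held TGACG, 7.49% TGACNTCA, 12.4% TATAAA and 32.7% GGGCGG. A match is a string of letters and says nothing of binding in these samples.

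The libraries held 24126662 to 92163619 reads in genes, and the 10 members together took 0.0408% to 0.0892% of them. All 10 members passed the filter on low counts in every comparison. Levels are given as CPM, counts per 1000000 reads after scaling by TMM factors, or as CPM per kilobase of exon where genes are compared with each other. A gene was called when its adjusted p from edgeR's quasi-likelihood test fell below 0.05.

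Per kilobase of exon, the JUN genes had the highest transcript levels of the 10 members in both conditions and Fosb and Atf3 the lowest. In control input libraries the means were 26.9 ± 5.27 CPM per kilobase for Junb, 25.5 ± 4.09 for Jun, 20.9 ± 3.20 for Jund and 17.3 ± 1.21 for Fosl2 (SD, n = 3). Egr1 followed at 12.9 ± 3.75, Ier2 at 10.6 ± 1.51, Fos at 7.62 ± 4.54 and Fosl1 at 4.14 ± 0.858 CPM per kilobase. Atf3 was at 1.76 ± 0.5002 and Fosb at 1.10 ± 0.540 CPM per kilobase. Among the control samples each gene overlapped its neighbour in this order, except that Fosl1 lay above Atf3 in every sample. The order by mean in UV input was the same but for Jun and Junb, at 24.9 ± 1.99 and 24.9 ± 0.565 CPM per kilobase, which overlapped. The other neighbours that overlapped in UV input were Egr1 at 9.23 ± 2.01 and Ier2 at 9.12 ± 0.0890 CPM per kilobase. Jund was at 18.6 ± 1.17, Fosl2 at 16.7 ± 0.123, Fos at 5.62 ± 1.43, Fosl1 at 3.53 ± 0.673, Atf3 at 1.05 ± 0.135 and Fosb at 0.481 ± 0.0977 CPM per kilobase in UV input.

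**Figure D1:**
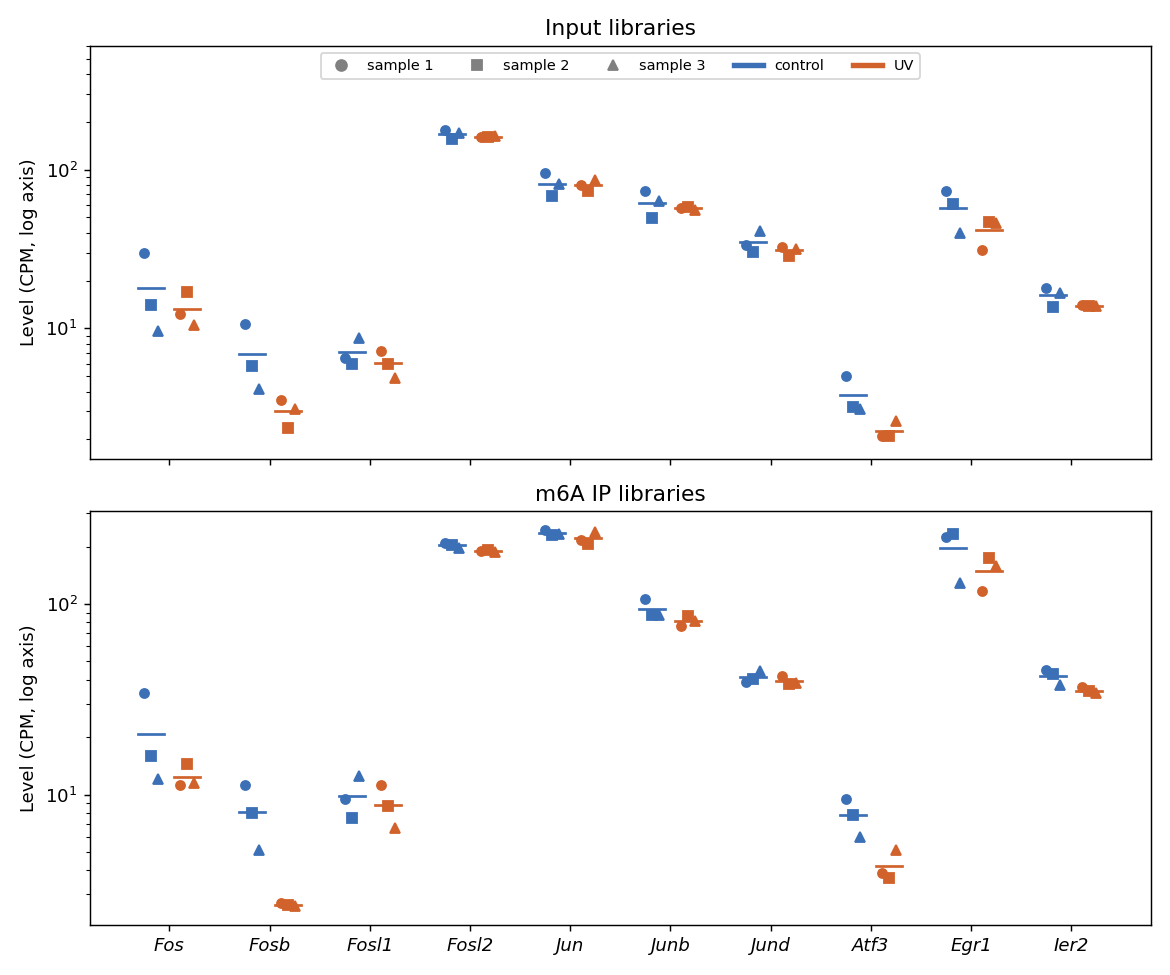
Level of each of the 10 genes in CPM (log axis), one point per library, with input and IP libraries of the control and UV samples shown separately. Control sample 1 is the highest input point for 8 of the 10 genes, and the 3 UV points of Fosb and of Atf3 lie below all 3 control points.

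The first comparison asked whether transcript levels of these genes differed between UV and control skin. In input RNA no member was called by edgeR, against 5.83% of the 24099 genes tested. An unadjusted p below 0.05 was reached by 2 of the 10, Fosb and Atf3 (25.1% of genes tested), and DESeq2 called those 2, along with 10.8% of all genes. All 10 estimated log2 differences were below 0, as were 52.5% of genes tested, with a median of -0.24 for the members and -0.02 for all genes. The 2 lowest estimates were those of Fosb and Atf3, the members whose samples did not overlap between conditions (15% of genes tested did not overlap with UV lower). In bulk tissue, fewer cells of a type and less RNA per cell cannot be told apart. Leaving out control sample 1 turned the estimates of Fos (to 0.16), Jun (to 0.08) and Junb (to 0.02) above 0, and leaving out UV sample 2 turned that of Jun to 0.02.

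Within the FOS family, Fosb, which encodes an activating partner of JUN proteins, lies on chromosome 7 (19302696 to 19310051, minus strand, GRCm38, in 2 exon blocks). Its input level was 10.7, 5.80 and 4.18 CPM in control samples 1 to 3 and 3.54, 2.34 and 3.12 CPM in UV samples 1 to 3. Every UV sample was below every control sample, and control sample 1 was the highest of the 6. The log2 difference was -1.22 (SE 0.33), with an unadjusted p of 0.0053 and an adjusted p of 0.0657 over all genes by edgeR. The estimate was -0.73 (adjusted p = 0.156) without control sample 1 and -1.48 (adjusted p = 0.0208) without control sample 3. DESeq2 called the gene on the same counts, at -1.20 with an adjusted p of 0.00258.

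Fos, the founding member of the family, lies on chromosome 12 (85473890 to 85477273, plus strand, 4 exon blocks). Its input level was 30.0, 14.1 and 9.67 CPM in control samples 1 to 3 and 12.2, 17.0 and 10.5 CPM in UV samples 1 to 3. The conditions overlapped: control sample 1 stood above the other 5 and control sample 3 was the lowest. The log2 difference was -0.45 (SE 0.37, adjusted p = 0.490).

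Fosl1 and Fosl2 encode FRA1 and FRA2, FOS proteins that lack the strong activation domain of Fos. Fosl1, on chromosome 19 (5447703 to 5455945, plus strand), was at 6.53, 5.95 and 8.72 CPM in control input and 7.20, 5.97 and 4.90 CPM in UV input, which overlapped (log2 difference -0.25, SE 0.19, adjusted p = 0.439). Fosl2, on chromosome 5 (32135801 to 32157842, plus strand), was at 177.9, 154.7 and 169.1 CPM in control input and 161.0, 160.2 and 162.6 CPM in UV input. Its UV samples lay inside the control range (log2 difference -0.06, SE 0.08, adjusted p = 0.674). Fosl2 was the steadiest member, with a highest control sample 1.15 times the lowest.

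The JUN genes, with Fosl2, had the estimates nearest to 0. Jun, the main transactivating JUN protein gene, is a single exon on chromosome 4 (95049034 to 95052222, minus strand), and was at 94.4, 68.3 and 81.4 CPM in control input and 80.0, 72.9 and 85.6 CPM in UV input. The UV samples lay inside the control range, and the log2 difference was -0.04 (SE 0.12, adjusted p = 0.859). Junb, a JUN protein that can restrain Jun, lies on chromosome 8 (84974484 to 84978718, minus strand) and was at 73.4, 49.2 and 63.3 CPM in control input and 57.4, 58.4 and 55.9 CPM in UV input. Its UV samples also lay inside the control range (log2 difference -0.12, SE 0.13, adjusted p = 0.596). Jund, the JUN gene expressed most steadily in resting cells, is a single exon on chromosome 8 (70698949 to 70700616, plus strand) and was at 33.3, 30.4 and 40.7 CPM in control input and 32.4, 28.7 and 31.7 CPM in UV input, which overlapped (log2 difference -0.18, SE 0.12, adjusted p = 0.373). A gene on the opposite strand overlaps 877 of the 1668 exon bases of Jund (Gm11175), 232 bases of Jun (Junos) and 173 of Junb (Prdx2). The sources used here do not say whether counting used strand, so reads of those stretches cannot be told apart. The span used for the Junb counts starts at 84974484, while its RefSeq span starts at 84976909.

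Atf3, a stress-induced bZIP factor that represses many of its targets, lies on chromosome 1 (191170296 to 191218039, minus strand, 5 exon blocks). Its input level was 5.03, 3.20 and 3.12 CPM in control samples 1 to 3 and 2.11, 2.09 and 2.60 CPM in UV samples 1 to 3. All UV samples were below all control samples. The log2 difference was -0.75 (SE 0.22), with an unadjusted p of 0.00809 and an adjusted p of 0.0788 by edgeR. Without control sample 1 it was -0.48 (adjusted p = 0.212), while DESeq2 on all 6 samples gave -0.74 (adjusted p = 0.0286).

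Egr1, on chromosome 18 (34859823 to 34864984, plus strand, 2 exon blocks), was at 72.8, 60.5 and 39.6 CPM in control input and 31.0, 46.9 and 46.2 CPM in UV input. Control samples 1 and 2 were above all UV samples, while control sample 3 lay between them (log2 difference -0.48, SE 0.23, adjusted p = 0.231). Ier2, a single exon on chromosome 8 (84661331 to 84662852, minus strand), was at 18.02, 13.6 and 16.8 CPM in control input and 14.0, 13.9 and 13.7 CPM in UV input. The 3 UV samples were almost equal and lay inside the control range (log2 difference -0.23, SE 0.11, adjusted p = 0.245).

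**Figure D2:**
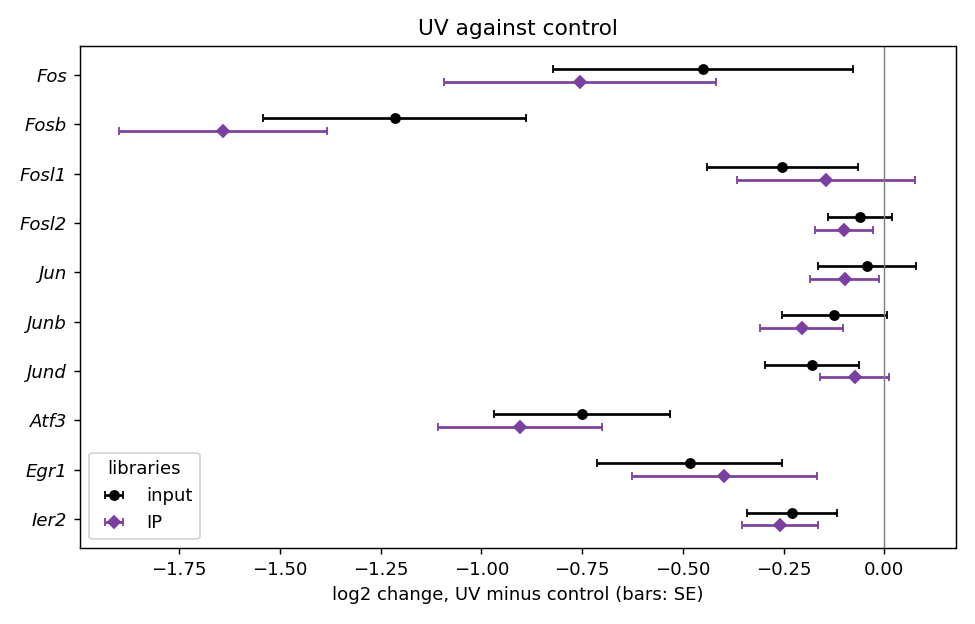
Log2 difference between UV and control for each of the 10 genes in input and in IP libraries, with bars of 1 SE (3 samples per group). All estimates lie below 0, Fosb is the lowest at -1.22 in input and -1.64 in IP, and the JUN genes and Fosl2 lie close to 0.

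Control sample 1 stood out for most members. It held the highest input level of 8 of the 10 members, and of 16.7% of the genes tested. Jund and Fosl1 were the exceptions, highest in control sample 3. The highest control sample was 3.10 times the lowest for Fos, 2.55 times for Fosb, 1.84 times for Egr1 and 1.61 times for Atf3, while the median gene of 17817 with a mean of at least 1 CPM had a ratio of 1.25. For Fos, 98.6% of those genes had a smaller ratio, and for Fosb 97.4%. Among UV samples the ratio was 1.62 for Fos, 1.51 for Fosb, 1.52 for Egr1 and 1.02 for Ier2, against 1.18 for the median gene. The 5 genes whose input levels followed the mean standardised level of the 10 members most closely over the 6 input libraries were Pias4 (Pearson r = 0.997), Ulk1 (0.991), Map3k10 (0.990), Josd2 (0.989) and Crebzf (0.987), out of 10452 genes with a mean of at least 5 CPM. Pias4 was at 19.0, 13.03 and 15.9 CPM in control input and 13.5, 12.9 and 13.5 CPM in UV input. The members' mean level was highest in control sample 1, so genes picked for following it share that feature by selection. With 6 libraries and 10452 genes, a high r for the closest few carries little weight.

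Markers of skin cell types moved between the same libraries. Of all 24099 genes tested in input, edgeR called 5.83% in either direction and 25.1% had an unadjusted p below 0.05. The summed level of 6 keratinocyte markers was 27674, 13359 and 44416 CPM in control input and 62156, 39998 and 58183 CPM in UV input, with 0 of the 6 called by edgeR and 3 at an unadjusted p below 0.05. The 5 fibroblast markers summed to 8799, 8324 and 7834 CPM in control and 5577, 6297 and 6507 CPM in UV, and 2 of the 5 were called lower in UV. The T cell markers summed to 8.38, 10.8 and 11.3 CPM in control and 2.80, 2.03 and 1.97 CPM in UV, with 3 of 5 called lower. Skeletal muscle markers summed to 3421, 8155 and 4232 CPM in control and 2913, 1042 and 2441 CPM in UV, with 2 of 6 called lower. Of the 5 macrophage markers 1 was called lower and of the 5 adipocyte markers 1 higher, the latter list summing to 140.9, 146.6 and 161.1 CPM in control and 154.2, 118.1 and 156.4 CPM in UV. The endothelium, neutrophil, hair and erythroid lists held 0 calls by edgeR, with 2, 0, 1 and 0 markers at an unadjusted p below 0.05. None of the markers in the 10 cell type lists was at 0 in every library, and the lowest was the neutrophil marker Ly6g with a mean of 0.0203 CPM. The part of these shifts in the values of the 10 members was not tested.

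Genes around AP-1 were compared in input RNA by lists of fixed membership. Over all genes tested, 5.83% were called by edgeR, 10.8% by DESeq2 and 25.1% had an unadjusted p below 0.05. Of 13 other AP-1 and related bZIP genes, 0 were called by edgeR or DESeq2 and 1 had an unadjusted p below 0.05, with a median log2 difference of -0.09. The smallest p was that of Maf, a bZIP factor of differentiation, at -0.25 (SE 0.10, adjusted p = 0.173). Of 23 other immediate early genes tested, 0 were called by edgeR, 3 by DESeq2 and 8 had an unadjusted p below 0.05, and the median was 0.10. The nuclear receptor gene Nr4a1 was at -0.89 (SE 0.22, adjusted p = 0.0520), the neuronal early gene Arc at -1.02 (SE 0.32, adjusted p = 0.0930) and the epidermal barrier factor Klf4 at 0.57 (SE 0.16, adjusted p = 0.0715). The dual specificity phosphatases switch off MAP kinases, and 9 were tested, with a median of -0.50. By edgeR 1 was called higher and 1 lower, while 5 had an unadjusted p below 0.05 and DESeq2 called 4. Dusp8, which acts on JNK and p38, fell from 5.89 ± 1.14 to 3.02 ± 0.640 CPM (SD, n = 3, log2 difference -0.96, SE 0.20, adjusted p = 0.0340). Dusp16, a JNK phosphatase, rose from 47.7 ± 3.79 to 63.2 ± 2.79 CPM (log2 difference 0.40, SE 0.09, adjusted p = 0.0372), and Dusp6, an ERK phosphatase, was at -0.53 (SE 0.14, adjusted p = 0.0630).

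Of 17 MAP kinases and upstream transcription factors 0 were called by edgeR, 1 by DESeq2 and 2 had an unadjusted p below 0.05, with a median of 0.00. Elk3, an ETS factor of serum response, had the smallest p at 0.43 (SE 0.12, adjusted p = 0.0710). The 5 genes for AU-rich element binding proteins, which set the decay of early transcripts, included 0 called by edgeR, 1 by DESeq2 and 2 with an unadjusted p below 0.05, and Zfp36l2 was at -0.41 (SE 0.11, adjusted p = 0.0632). Among 17 tested AP-1 target genes in skin the median was 0.19, 5 had an unadjusted p below 0.05 and DESeq2 called 3. By edgeR 1 gene was called: Mmp3, encoding stromelysin 1, fell from 20.5 ± 1.66 to 15.0 ± 1.19 CPM (log2 difference -0.46, SE 0.10, adjusted p = 0.0389). S100a9, encoding a calcium-binding alarmin, was at 0.67 (SE 0.22, adjusted p = 0.112) and the hyaluronan receptor gene Cd44 at 0.32 (SE 0.11, adjusted p = 0.107).

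The second comparison set antibody-bound RNA of UV skin against that of control skin. Fosb was the only member called, lower in UV, where 1.05% of the 22789 genes tested were called lower. An unadjusted p below 0.05 was reached by 3 members (19.6% of genes tested). The 10 estimates were again all below 0 (50.2% of genes tested), and 5 members, Fosb, Fosl2, Junb, Atf3 and Ier2, had UV samples all below the control samples (11.7% of genes tested). The IP libraries come from the same 6 samples as the input libraries, so the comparisons are not independent.

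Fosb was at 11.2, 8.03 and 5.11 CPM in control IP and 2.68, 2.63 and 2.60 CPM in UV IP. The 3 UV samples were nearly equal, while the control samples spanned a wide range above them. The log2 difference was -1.64 (SE 0.26, adjusted p = 0.0181 by edgeR). The call was lost without control sample 1 (-1.33, adjusted p = 0.0610). It was also lost without UV sample 1, 2 or 3, with estimates of -1.65, -1.62 and -1.64 (adjusted p = 0.0852, 0.0915 and 0.0622). These fits called 0.293% to 0.988% of all genes, against 2.5% with all samples.

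Atf3 was at 9.50, 7.81 and 5.99 CPM in control IP and 3.87, 3.63 and 5.13 CPM in UV IP, with no overlap (log2 difference -0.90, SE 0.20, adjusted p = 0.0607). It passed the threshold without control sample 3 (-1.05, adjusted p = 0.0258) and in DESeq2 (-0.90, adjusted p = 0.00186). Fos was at 34.2, 16.0 and 12.1 CPM in control IP and 11.2, 14.5 and 11.5 CPM in UV IP, which overlapped (log2 difference -0.75, SE 0.34, adjusted p = 0.265). Egr1 was at 225.1, 234.2 and 128.2 CPM in control IP and 117.2, 173.2 and 157.8 CPM in UV IP, again with control sample 3 between the UV samples (log2 difference -0.40, SE 0.23, adjusted p = 0.390). The log2 differences of Ier2 and Junb, whose samples did not overlap, were -0.26 (SE 0.09, adjusted p = 0.181) and -0.21 (SE 0.10, adjusted p = 0.314). Fosl1, Fosl2, Jun and Jund lay between -0.14 and -0.07, with adjusted p-values of 0.4996 to 0.773. The estimate of Fosl1 was above 0 without control sample 3 (0.05) or UV sample 3 (0.01).

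In the lists, the immediate early gene Sgk1, a kinase of salt and glucocorticoid response, was higher in UV IP (log2 difference 0.41, SE 0.08, adjusted p = 0.0396) and at 0.11 (SE 0.09, adjusted p = 0.498) in input. It was the only other immediate early gene called in IP, where edgeR called 2.5% of all genes in either direction. S100a9 was higher in UV IP among the AP-1 target genes (0.97, adjusted p = 0.0356).

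The third comparison was IP against input, the measure of m6A enrichment over the whole transcript, given as a log2 difference relative to the average gene. Egr1, Jun, Ier2 and Atf3 were the most enriched members in both conditions, while Fos and Fosb were near the average gene. In control skin 6 of the 10 members were called higher in IP (24.6% of the 25022 genes tested) and 0 lower (25.8%), and in UV skin 7 were called higher (24.7%) and 0 lower (24.3%).

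Egr1 had log2 values of 1.63, 1.95 and 1.696 in control samples 1 to 3 and 1.92, 1.88 and 1.77 in UV samples 1 to 3. The fitted enrichment was 1.77 (SE 0.27, adjusted p = 0.000118) in control skin, above that of 99.1% of genes, and 1.85 (SE 0.27, adjusted p = 8.74e-05) in UV skin. Jun had 1.37, 1.76 and 1.51 in control and 1.44, 1.499 and 1.48 in UV samples, with fitted values of 1.53 (SE 0.11, adjusted p = 3.04e-07) and 1.47 (SE 0.11, adjusted p = 4.72e-07). In control skin 98.0% of genes lay below Jun. Ier2 had 1.32, 1.66 and 1.16 in control and 1.39, 1.32 and 1.30 in UV samples, with fitted values of 1.37 (SE 0.10, adjusted p = 4.36e-07) and 1.34 (SE 0.10, adjusted p = 6.2e-07).

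Atf3 was enriched by 1.04 (SE 0.22, adjusted p = 0.00163) in control skin and 0.88 (SE 0.23, adjusted p = 0.00601) in UV skin, and its 6 samples ranged from 0.80 to 1.29. Junb was enriched by 0.60 (SE 0.13, adjusted p = 0.00151) and 0.51 (SE 0.13, adjusted p = 0.00429). Fosl2 was called in control skin (0.28, SE 0.07, adjusted p = 0.00391) and in UV skin (0.24, SE 0.07, adjusted p = 0.0108), and with scaling by library size alone these were 0.03 (adjusted p = 0.814) and 0.08 (adjusted p = 0.469). Jund was called in UV at 0.35 (SE 0.10, adjusted p = 0.0146) and was at 0.25 (SE 0.10, adjusted p = 0.0675) in control. The UV calls of Fosl2 and Jund were both lost when UV sample 1, 2 or 3 was left out (adjusted p of 0.0737 to 0.0849 for Fosl2 and 0.0566 to 0.0889 for Jund). The control value of Jund passed the threshold without control sample 3 (0.32, adjusted p = 0.0179).

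Fosl1 was at 0.46 in control (SE 0.23, adjusted p = 0.114) and 0.56 in UV skin (SE 0.23, adjusted p = 0.0578). It passed the threshold in UV skin when control sample 2 (adjusted p = 0.0405) or 3 (adjusted p = 0.0316) was left out. Fos was at 0.22 (SE 0.40, adjusted p = 0.683) and -0.09 (SE 0.41, adjusted p = 0.881), and Fosb at 0.24 (SE 0.32, adjusted p = 0.550) and -0.18 (SE 0.34, adjusted p = 0.687). Scaled by library size alone, control Fos, Fosb and Jund were at -0.04, -0.01 and -0.00036, so the side of 0 on which they lie depends on the scaling. Pairing the IP and input library of each sample as a replicate block called 9 members in control skin and 8 in UV skin, adding Fos (0.22, adjusted p = 0.0164), Fosl1 (0.47, adjusted p = 0.000178) and Jund (0.25, adjusted p = 0.000864) in control and Fosl1 (0.54, adjusted p = 3.61e-05) in UV. That fit called 61.1% of all genes in either direction in control skin and 60.5% in UV skin.

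**Figure D3:**
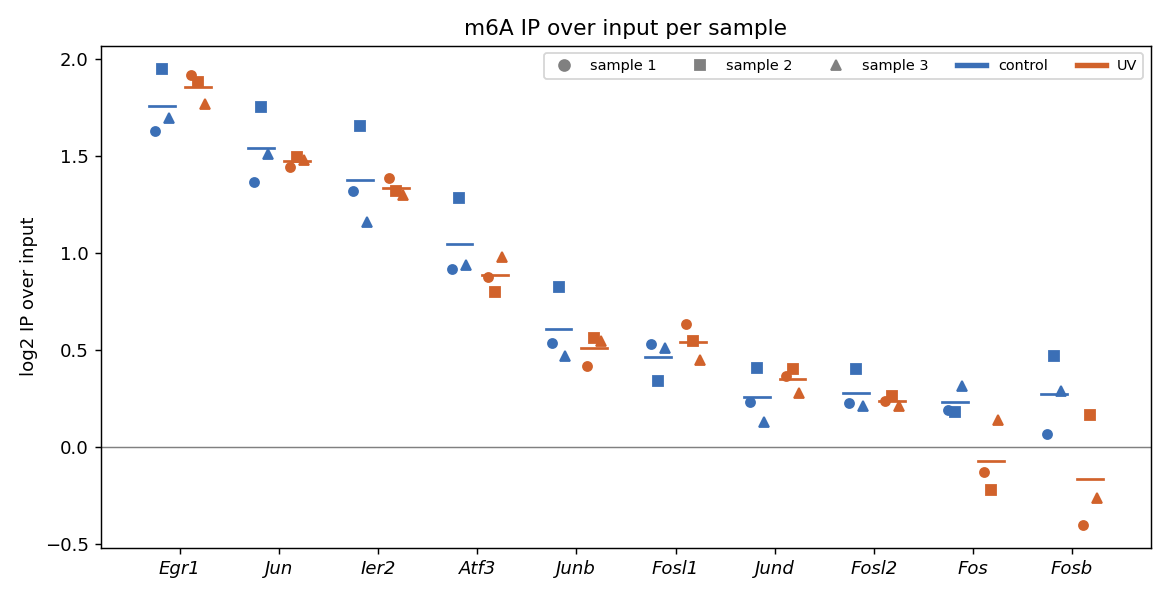
Log2 ratio of IP to input (TMM-scaled, so 0 is the average gene) for each of the 10 genes, one point per sample, control and UV side by side. Egr1, Jun and Ier2 lie above 1.1 in all 6 samples, and Fos and Fosb lie between -0.40 and 0.47.

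The companion lists were compared between IP and input in the same way. Of 23 other immediate early genes 15 were called higher in IP than input and 1 lower, and of 13 related bZIP genes 8 were higher and 1 lower, where 24.6% of all genes were higher and 25.8% lower. In UV skin these were 13 higher and 1 lower and 6 higher and 1 lower (24.7% and 24.3% of all genes). In control skin Klf4 was at 1.36 (SE 0.17, adjusted p = 2.27e-05) and Sgk1 was the early gene called lower, at -0.84 (SE 0.08, adjusted p = 2.53e-06). Among 17 MAP kinases and upstream factors 4 were higher and 6 lower in control skin, and 3 and 6 in UV skin. Among 17 AP-1 target genes 2 were higher and 3 lower in control skin, and 0 and 4 in UV skin. Mmp3 was one of those lower in control skin, at -1.12 (SE 0.10, adjusted p = 1.19e-06).

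The fourth comparison asked whether enrichment changed with UV, as the interaction of IP over input with condition. No member was called by edgeR, at an adjusted p of 1.00 for each, where 3 of 25022 genes (0.012%) were called. No member had an unadjusted p below 0.05 (4.43% of genes did), and DESeq2 also called 0 of the 10. With the IP and input library of each sample paired as a replicate block, edgeR called 399 genes (1.59%) and 0 of the 10 members, whose adjusted p-values ran from 0.234 for Fos to 0.957 for Ier2. Without the block, the fitted changes ran from -0.42 for Fosb to 0.10 for Fosl1 and Jund. Fos was the member whose samples did not overlap, at 0.19, 0.18 and 0.32 in control and -0.13, -0.22 and 0.14 in UV samples (9.04% of genes did not overlap with UV lower). Each of the 6 companion lists also held 0 calls for this change by edgeR and by DESeq2, with 0 or 1 gene per list at an unadjusted p below 0.05.

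The deposited peaks placed this enrichment along the transcripts. Of the members' 28 peaks, 17 were called by the authors in the UV arm and 11 in the control arm, and all 11 control-arm peaks overlapped UV-arm peaks. Over all genes the UV arm held 24969 peaks and the control arm 18020. How many of those 18020 overlapped a UV-arm peak was not computed, so full overlap cannot be called a trait of the members. Fos had no peak in either arm, and Fosb and Fosl1 had 1 each in the UV arm only. Jun had 3 peaks in each arm, Fosl2 2 in each, Jund and Ier2 1 in each. Junb had 3 in the UV arm and 2 in the control arm, Egr1 3 and 1, and Atf3 2 and 1. The sources used here do not say whether peaks were called per sample or on pooled samples. Read counts in peaks were compared between IP and input relative to the average peak, so a value near 0 is a peak enriched as much as others are (the median over all peaks was 0.03 in control and 0.10 in UV).

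On this scale 12 of 28 peaks were called higher and 2 lower in control skin (13% of 39910 peaks tested were higher and 29.9% were called either way). In UV skin 14 were higher and 3 lower (17% higher and 35.3% either way). Unless stated, peak values and calls come from this fit, which does not pair the IP and input library of each sample. With that pairing as a replicate block, 40.1% of all peaks were called either way in control skin and 45.6% in UV skin. With library sizes taken from the gene table, 27 of the 28 were higher than input in each condition, as were 89% and 93.8% of all peaks tested. The authors had picked these regions as m6A peaks of the same series. A value above input, and its adjusted p, is therefore no independent evidence of enrichment. Overlapping peaks of the 2 arms count many of the same reads.

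The Jun peak nearest to the 3′ end had the highest value of the 28 in control skin. In the control arm it spanned 597 bases, chr4:95049898-95050494, from base 1729 to 2325 of the 3189 exon bases. Its log2 value was 1.07, 1.44 and 1.28 in control samples and 1.23, 1.19 and 1.22 in UV samples, fitted at 1.24 (SE 0.12, adjusted p = 2.65e-06) and 1.22 (SE 0.12, adjusted p = 2.79e-06). The control-arm peak of Egr1, chr18:34862683-34863938, spanned 1256 bases of exon block 2 and was at 0.85 in control (SE 0.23, adjusted p = 0.0114) and 0.93 in UV skin (SE 0.23, adjusted p = 0.00588). The control-arm peak of Ier2, chr8:84661480-84662464, covered 985 of the 1522 exon bases and was at 0.50 (SE 0.12, adjusted p = 0.0057) and 0.37 (SE 0.12, adjusted p = 0.0255), the UV call being lost without any 1 of the UV samples (adjusted p of 0.0987 to 0.145).

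Fosl2 had 1 peak at the first exon bases of the span used for its counts, chr5:32135801-32136041. Its fitted values were 0.49 in control (SE 0.10, adjusted p = 0.00172) and 0.46 in UV skin (SE 0.10, adjusted p = 0.00239). That peak and the UV-arm peak over it lie wholly before the RefSeq span of Fosl2, which starts at 32136472. The other Fosl2 peak lay in the last exon block, chr5:32153075-32153525, with 0.79 in control (SE 0.17, adjusted p = 0.00223) and 1.32 in UV skin (SE 0.17, adjusted p = 2.9e-05). In Jun the most 5′ peak, chr4:95051775-95051864, lay below the average peak in UV skin (-0.58, SE 0.14, adjusted p = 0.00374) and was at -0.09 (SE 0.14, adjusted p = 0.659) in control. The Junb peak at the 5′ end, chr8:84978481-84978688, was below the average peak in both conditions, at -0.77 (SE 0.17, adjusted p = 0.00285) and -0.94 (SE 0.17, adjusted p = 0.000505). Scaled to the gene table, the same values were 1.11 in control and 0.63 in UV for Jun and 0.43 in control for Junb, each called higher than input, and 0.28 in UV for Junb (adjusted p = 0.143).

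The other Junb peaks gave 0.46 in control (SE 0.15, adjusted p = 0.0315) and 0.51 in UV skin (SE 0.15, adjusted p = 0.0154) at chr8:84977947-84978303 in the control arm. The control call there was lost without control sample 2 or 3 or UV sample 1 or 3 (adjusted p of 0.0502 to 0.0995), and the UV call without UV sample 1, 2 or 3 (0.0645 to 0.119). The 386-base UV-arm peak over it gave 0.45 and 0.51 (adjusted p = 0.0371 and 0.0176). The control call of that peak was lost without control sample 2 or 3 or any UV sample (0.0529 to 0.115), and its UV call without any UV sample (0.0712 to 0.128). The 505-base UV-arm peak of Junb, chr8:84976969-84977473, was below the average peak in control skin (-0.50, SE 0.14, adjusted p = 0.0129), a call lost without control sample 1 or 3 (0.0606 and 0.0503), and was at -0.11 in UV (adjusted p = 0.571). Jund had 1 called peak, in the control arm at chr8:70699931-70700229, at 0.49 in UV (SE 0.14, adjusted p = 0.0127) and 0.37 in control (SE 0.14, adjusted p = 0.0579). The UV call of Jund was lost without UV sample 2 or 3 (0.0791 and 0.0737). Its control value passed the threshold with the replicate block (0.38, adjusted p = 0.00453) and with library size only (0.45, adjusted p = 0.0195).

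The UV-arm peaks over the sites of Jun, Egr1, Ier2 and Fosl2 covered the same bases and more. The Jun peak gave 1.05 in control and 1.03 in UV skin (SE 0.12 for both). The Egr1 peak gave 0.84 (adjusted p = 0.0131) and 0.93 (adjusted p = 0.00612), with the control call lost without control sample 1 (0.0537) or 2 (0.0527). The Ier2 peak gave 0.39 (adjusted p = 0.0164) and 0.32 (adjusted p = 0.0380), with the control call lost without control sample 1 (0.0517) or 2 (0.0716) and the UV call without any UV sample (0.122 to 0.182). The Fosl2 peaks gave 0.49 and 0.46 at the first exon, and 0.41 (adjusted p = 0.0398) and 0.90 (adjusted p = 0.00021) in the last exon block, where the control call was lost without control sample 1 or 2 or any UV sample (0.0576 to 0.284). The 5′ UV-arm peak of Jun was at -0.25 in control (adjusted p = 0.160) and -0.69 in UV (adjusted p = 0.00054). The other 10 peaks, 3 of Atf3, 2 of Jun, 2 of Egr1 and 1 each of Fosb, Fosl1 and Jund, were called in neither condition and lay between -0.79 and 0.23 in control and between -0.46 and 0.38 in UV skin.

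**Figure D4:**
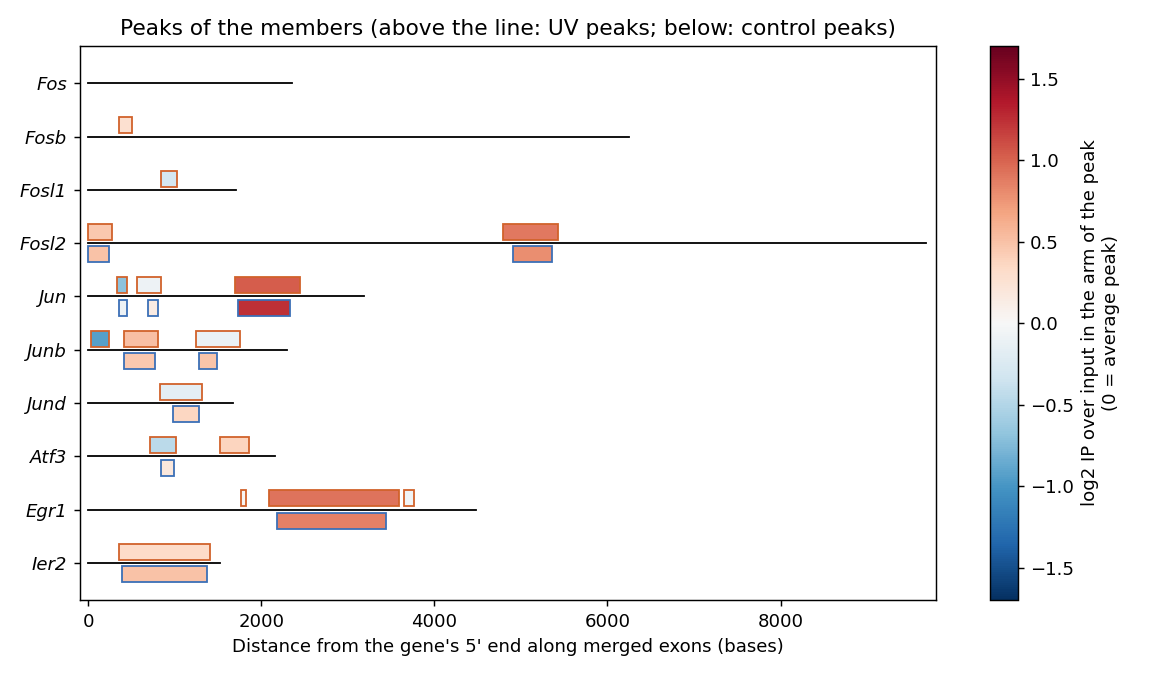
Position of the deposited peaks along each member's merged exons, in bases from the 5′ end, for the control and UV arms. Fill colour gives the log2 IP over input of each peak in its own arm. Every control-arm peak shown lies over a UV-arm peak, and Fos has no peak. The share of such overlap over all genes was not computed.

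No member peak was called for a change of enrichment between UV and control after adjustment, which does not show that none changed. None of the 39910 peaks tested (0%) was called by edgeR without a block, DESeq2 called 0 of the 28, and 5 of the 28 had an unadjusted p below 0.05 (8.08% of all peaks did). With IP and input paired as a replicate block, 348 peaks (0.872%) and 0 of the 28 were called. Among these 5 peaks are the overlapping arms of 1 Jun site and of 1 Fosl2 site. The change was -0.49 (SE 0.20, unadjusted p = 0.0232) for the control-arm peak at the 5′ site of Jun and 0.53 (SE 0.24, unadjusted p = 0.042) for that in the last exon block of Fosl2.

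The other was a control-arm peak of Junb, chr8:84977236-84977444, of 209 bases. Its log2 value was 0.57, 0.46 and 0.47 in control samples and 1.56, 2.27 and 1.38 in UV samples, with no overlap. By edgeR its IP over input was fitted at 0.48 (SE 0.22, adjusted p = 0.114) in control skin. In UV skin the peak was called at 1.65 (SE 0.25, adjusted p = 9.93e-05), the highest UV value of the 28 peaks. The change was 1.17 (SE 0.33, unadjusted p = 0.00303, adjusted p = 0.540 by edgeR), and 1.19 (adjusted p = 0.0923) with the replicate block. The input reads behind it numbered 48, 21 and 56 in control and 14, 11 and 29 in UV samples, and the IP reads 133, 138 and 71 in control and 81, 200 and 105 in UV samples. The UV-arm peak over the same site, 505 bases long, changed by an estimated 0.39 (SE 0.20, adjusted p = 0.642). In the authors' deposited table the 209-base peak had a log fold change of 1.18, a p of 0.0179 and an FDR of 0.702. That table put 45 of 42986 peaks (0.105%) below an FDR of 0.05 and no peak of these 10 genes among them.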

How the data were processed

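Counts of reads per gene and per peak in 12 libraries were deposited by the authors, un-normalised. Per the submitters' processing notes STAR 2.5.3a and the GRCm38 build were used. The sources used here do not give the counter, strand setting, peak caller or the authors' test. Per the file headers the deposited peak table also holds the authors' logFC, taken as log2 because it matches the edgeR interaction, with a p-value and FDR. Between 79.5% and 83.6% of low counts were even, so mates may have been counted separately. Counts were tested with edgeR 4.0.16 in R 4.3.3 (TMM, filterByExpr, quasi-likelihood F test, Benjamini-Hochberg adjustment over all genes or peaks, called below 0.05), on 6 libraries for UV against control and on all 12 for IP over input and its change. DESeq2 1.42.0 was an alternative. The fits were tested on simulated counts with the same spread for every gene and no pairing of libraries. That test does not show how they behave under the spread and pairing of these libraries. IP and input of 1 sample number deviated together (r 0.404 to 0.634, against -0.520 to -0.139 for different numbers), so numbers pair them. Replicates differed beyond counting noise (chi-square per degree of freedom 48.0 to 167). Peak starts are printed counting from 1. All 10 members are described, and up to 3 genes per companion list with the smallest input p. Sgk1 and S100a9 in IP, and Klf4, Sgk1 and Mmp3 in IP over input, were named after their values were seen. Each peak called in either condition is given its values, and the others a range. Members and lists were chosen with earlier results of these data known.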

Additional observations from a re-analysis of the deposited data

How the results depend on the processing

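The number of members called between UV and control was sensitive to the method. In input it was 0 by edgeR (5.83% of all genes called), 1 with library size only (6.12%) or a fit on all 12 libraries (8.56%), 2 with DESeq2 (10.8%) or no low-count filter (5.82%), and 0 to 1 with 1 sample left out (0.879% to 8.53%). In IP it was 1 by edgeR (2.5%), 2 under each of library size only (2.55%), DESeq2 (5.99%), no low-count filter (3.96%) and a fit on all 12 libraries (4.11%), and 0 to 2 with 1 sample left out (0.293% to 5.19%). Control and UV samples of equal number did not deviate together (r -0.165 to 0.0539 in input), and with the number as a replicate block 0 members were called in input and 1 in IP. Peaks called numbered 14 in control (29.9% of all peaks), 27 with gene-table library sizes (89.4%) and 9 to 12 with 1 sample left out (21.4% to 27.1%), and 17 in UV (35.3%), 27 with gene-table sizes (94.3%) and 12 to 17 with 1 sample left out (21.9% to 39%).

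Signs turned for values near 0. With 1 sample left out, the input difference of Fos ran from -0.75 to 0.16, of Jun from -0.15 to 0.084 and of Junb from -0.26 to 0.022, the IP difference of Fosl1 from -0.34 to 0.052, and UV IP over input of Fos from -0.19 to 0.00044. The change of IP over input ran from -0.077 to 0.016 for Fosl2, -0.15 to 0.038 for Jun, -0.15 to 0.0071 for Junb, -0.13 to 0.091 for Ier2 and -0.0098 to 0.20 for Egr1. With library size only it was 0.052, 0.036, 0.0063 and 0.057 for Fosl2, Jun, Junb and Ier2, and control IP over input was -0.042 for Fos, -0.015 for Fosb and -0.00036 for Jund. With gene-table sizes the 5′ Jun peaks were at 0.96 and 1.11 in control and 0.52 and 0.63 in UV, the Junb 505-base peak at 0.70 and 1.10 and the Junb 5′ peak at 0.43 and 0.28. With 1 sample left out the 505-base peak ran from -0.25 to 0.044 in UV (0.081 with library size only) and the control-arm 5′ Jun peak from -0.18 to 0.086 in control. Gene-table sizes move the median of all peaks from 0.03 to 1.23 in control. The cause of the other shifts was not tested. Fosb and Atf3 rest on few reads, and 3 samples per group limit every comparison.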
